A study of Homo sapiens with 8 samples.

Results

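The response of SYK-KO cells to epidermal growth factor (EGF) was examined in 4 RNA-seq libraries: 2 from untreated SYK-KO cells and 2 from SYK-KO cells given EGF at 50 ng/ml for 24 h. They are 4 of the 8 libraries of the series, whose other libraries come from SYK-WT cells under the same treatments. The members were chosen by genotype and treatment and not by any measured value. All groups are OVISE cells, an established human line of ovarian clear cell carcinoma, and are labelled by SYK genotype and EGF. The knockout was made with a nickase form of Cas9 and a pair of guides against exon 2 of SYK, after which cells were selected with puromycin and cloned from single cells. The number of clones behind the libraries is not given in the sources used here, and cloning of the SYK-WT cells is not mentioned there. The sources are also silent on separate cultures for the 2 libraries per group, so p-values reflect library-to-library spread that may be technical.

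EGF binds the receptor tyrosine kinase EGFR at the cell surface and starts RAS, ERK, PI3 kinase and STAT signalling. The early output is a burst of transcription factors of the AP-1 and EGR families and of feedback inhibitors that dampen the pathway. At later times epithelial cells given EGF are known to change secreted proteases, adhesion molecules, ligands and metabolism. SYK, a tyrosine kinase without a membrane-spanning part, relays signals of immune receptors, and the study asks how its activity shapes the genes that depend on EGFR.

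The guides that define the SYK-KO genotype are shown because every value below comes from cells carrying this edit. They are printed 5′ to 3′ as the labels give them, without capitals since no position within them is discussed.
Guide nicking the top strand: cggacagggcgaagccaccc
Guide nicking the bottom strand: cacaccactacaccatcgag
SYK RNA remained listed in SYK-KO cells, at 3.11 and 3.43 FPKM (fragments per kilobase of transcript, scaled to library size) in the untreated libraries and 2.80 and 3.16 with EGF. In SYK-WT cells SYK was at 4.91 and 5.30 untreated and 3.88 and 3.62 with EGF. A small edit in an exon need not remove the transcript, so these RNA levels do not check the knockout. With EGF, SYK in SYK-KO cells moved by -0.10 ± 0.0838 on the log2 scale (SE, n = 2 per group; limma adjusted p = 0.422), and the groups overlapped.

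Epithelial markers were abundant in the 4 libraries. The summed level of 8 epithelial markers was 9342 to 10203 FPKM untreated and 13644 to 14968 with EGF, and none of them was at 0. All 8 fibroblast markers together reached at most 0.402 FPKM, with COL3A1, DCN and LUM at 0, and 6 endothelial markers at most 0.276, with EMCN at 0. Of 10 haematopoietic markers 2 reached 1 FPKM, CD68 and LAPTM5, and both were called higher (0.92 and 0.76, limma). The list summed to 19.3 to 19.9 FPKM untreated and 37.5 to 37.7 with EGF. The defining leukocyte gene PTPRC was at most 0.0216 FPKM, CD3E and MS4A1 were at 0 and CD8A was at most 0.465. The myeloid marker CSF1R was at 0.234 and 0.270 untreated and 0.420 and 0.732 with EGF. CD68 and LAPTM5 are lysosomal proteins, and the source of the RNA of this list was not tested. Of 6 mesothelial markers 3 reached 1 FPKM, UPK3B, LRRN4 and CALB2, and the list summed to 14.8 to 16.5 FPKM untreated and 12.6 to 12.7 with EGF; their part in the results was not tested. The step between low FPKM values gave each library a scale relative to SYK-KO replicate 1. It was 0.865 for SYK-KO EGF replicate 1, 0.975 for SYK-KO EGF replicate 2 and 1.02 for SYK-KO replicate 2. For SYK-KO EGF replicate 1 the step held 307 of 3381 low loci. How the FPKM were scaled is not given, so this scale need not be read depth. Read counts per library were not used here. In RNA from whole cultures, fewer cells of a state and less RNA per cell cannot be told apart.

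The authors' table lists 27757 loci, and the 12112 with 1 FPKM or more in 2 or more of the 8 libraries were tested. EGF changed 2646 of them in SYK-KO cells, 21.8% of all loci tested (limma on log2(FPKM + 1), Benjamini-Hochberg adjusted p under 0.05). Rises made up 1396 calls, 11.5% of the loci tested, and falls 1250, 10.3%. Most changes were small: 1965 calls (74.3%) were under 0.5 on the log2 scale, 75 rises and 23 falls reached 1, and the median absolute log2 fold change over all loci was 0.125. The signed median over all loci, given beside the gene lists below, was 0.00135. Untreated and EGF libraries did not overlap at any of the 2646 called loci, and neither did they at 63.3% of all loci tested. Fold changes below are log2 ratios of FPKM + 1, EGF minus untreated, which understate the change of genes near 1 FPKM. The spread between these 4 libraries set the test. When all 8 libraries shared one spread, 1429 loci (11.8%) were called, 808 higher and 621 lower, all of them also among the 2646. Leaving out SYK-KO replicate 2 gave 1095 calls and leaving out SYK-KO replicate 1 gave 1419. Strand is not given, so genes listed at the same interval cannot be told apart; among those named below with a change of at least 1 these are MMP1, PLAU, WNT9A, ITGA5, HSD11B1, TM4SF1, TAGLN, FOXJ1, KCNIP1, FGD3, ZBED2, CD24, OLR1 and TMEM52B. Calls named below held in all 11 alternative fits that include the gene unless a number of fits is given in which the call ended. Of 442 further genes examined that were not called, 120 passed in at least 1 of these fits. Among those named below as not passing, CDH1 passed in 5 fits and FOS and ERBB2 in 4. EGFR, EGR1, F2R, LAMC1, CDKN1A, MDM2, PCNA and ACTB passed in 2, and ERBB3, EPCAM, MKI67, ATF4, LCN2 and VDAC1 in 1.

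**Figure D1:**
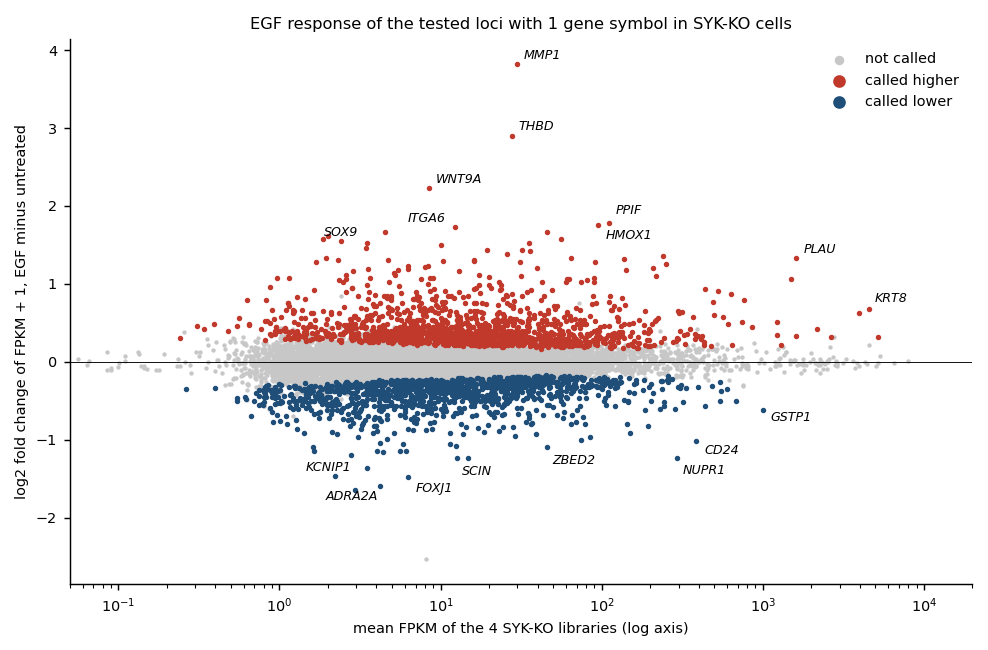
Log2 fold change of FPKM + 1 (EGF minus untreated, vertical axis) against the mean FPKM of the 4 SYK-KO libraries (log horizontal axis), 1 point per tested locus with a single gene symbol. Red points were called higher, blue points lower and grey points not called; MMP1 at 3.82 and THBD at 2.90 stand at the top, and PLAU and KRT8 are high and abundant.

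Proteases that act on the extracellular matrix gave the largest rise. MMP1, the interstitial collagenase that cuts fibrillar collagen, was at 2.93 and 3.13 FPKM in the untreated libraries and 49.0 and 63.6 with EGF. This is 18.6-fold on the FPKM scale and 3.82 ± 0.118 on the log2 scale (SE, n = 2 per group; limma adjusted p = 5.48e-05), the largest value among the named genes. MMP1 lies at chromosome 11, 102654407 to 102714420 (hg19), an interval that also lists MMP3 and the pseudogene WTAPP1. The rest of its family moved less and in both directions. Of 12 measured genes among MMPs, ADAMTS proteases and their TIMP inhibitors 3 rose and 4 fell, where 11.5% and 10.3% of all loci did so, and their median log2 fold change was -0.09. MMP24, a membrane-type enzyme, went from 9.28 and 10.2 to 5.45 and 6.11 FPKM (-0.67; limma adjusted p = 0.00304). The membrane-type collagenase MMP14 went from 105 and 98.4 to 129 and 133 (0.36), a call that ended in 1 fit. ADAMTS1, which cuts proteoglycans, went from 3.08 and 3.58 to 1.91 and 1.91 (-0.57), also lost in 1 fit. With all 8 libraries in the fit the list held 1 rise, MMP1, and 1 fall, MMP24.

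The plasminogen and coagulation list held the highest share of rises among the 31 gene lists examined. Plasmin is made from plasminogen by urokinase (PLAU) or tissue activator (PLAT), urokinase is held at the surface by its receptor PLAUR, and serpins inhibit both activators. Of 14 measured genes 11 rose (78.6%) and 0 fell, against 11.5% and 10.3% over all loci. The median was 0.51 against 0.00135 over all loci. Thrombomodulin, THBD, an endothelial and epithelial receptor that turns thrombin toward protein C, was at 6.15 and 5.39 FPKM untreated and 51.2 and 47.9 with EGF, 8.59-fold. Its log2 fold change was 2.90 ± 0.0741 (limma adjusted p = 3.15e-05), and THBD lies at chromosome 20, 23026270 to 23030301 (hg19).

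PLAU was already abundant, at 1023 and 828 FPKM, and rose to 2456 and 2170 (1.33; limma adjusted p = 8.92e-04). PLAUR went from 20.3 and 17.9 to 53.3 and 52.2 FPKM (1.42). Activator and receptor thus both gave EGF libraries above 2 times the untreated ones. SERPINE2, a secreted inhibitor of thrombin and urokinase, went from 41.1 and 39.8 to 89.5 and 81.3 FPKM (1.06). F2RL1, a receptor opened by proteases, went from 58.5 and 54.9 to 91.9 and 88.7 (0.66). ANXA2, which holds plasminogen at the surface, went from 516 and 492 to 700 and 714 (0.49). TFPI2, a Kunitz inhibitor abundant in this line, went from 473 and 439 to 715 and 653 FPKM (0.58), and its call ended in 1 fit. Tissue factor, F3, missed the threshold (0.03; adjusted p of 0.707, limma), as did the protein C receptor PROCR (0.05) and the thrombin receptor F2R (0.20). PLAT, the other activator, rose from 3.88 and 3.42 to 5.69 and 4.84 FPKM (0.43; limma adjusted p = 0.0231), and its call ended in 3 fits.

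**Figure D2:**
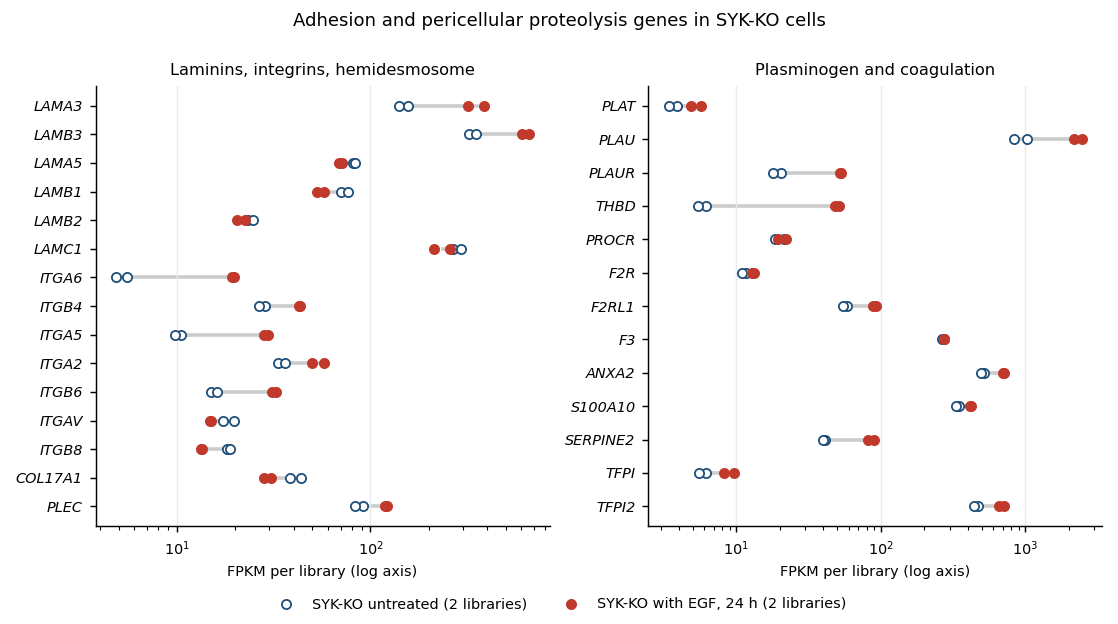
FPKM per library (log axis) of laminin, integrin and hemidesmosome genes (left) and plasminogen and coagulation genes (right); open circles are the 2 untreated and filled circles the 2 EGF libraries of SYK-KO cells, joined at their means. LAMA3 and LAMB3 move right together while LAMA5 and LAMB1 move left, and THBD moves from 6.15 and 5.39 to 51.2 and 47.9 FPKM.

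Laminin chains LAMA3 and LAMB3 rose together. Laminins are basement membrane ligands built from an alpha, a beta and a gamma chain. LAMA3 was at 140 and 156 FPKM untreated and 321 and 388 with EGF (1.25 ± 0.0992; limma adjusted p = 7.59e-04). LAMB3 was at 324 and 351 and then 606 and 661 (0.91; adjusted p = 6.25e-04 by limma). All EGF libraries lay above all untreated ones at both genes. The groups also did not overlap at any other called locus, nor at 63.3% of all loci tested. LAMB1 fell from 70.6 and 76.2 to 52.8 and 57.7 FPKM (-0.40), LAMC1 was at -0.26 (limma adjusted p = 0.108), and the call of LAMA5 (-0.22) ended in 4 fits.

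ITGA6 and ITGB4 form an epithelial integrin that binds laminin. ITGA6 was at 4.83 and 5.47 FPKM untreated and 19.2 and 19.6 with EGF, 3.77-fold, or 1.73 ± 0.0718 in log2 (limma adjusted p = 1.30e-04). ITGB4 went from 28.4 and 26.6 to 43.4 and 42.8 FPKM (0.63). The next 2 hemidesmosome genes, chosen after their values were seen, differed in direction: PLEC, the plakin that ties this integrin to keratin, went from 91.2 and 83.0 to 122 and 119 (0.46), and the collagen COL17A1 from 38.4 and 43.7 to 28.1 and 30.7 (-0.47; its call ended in 1 fit). ITGA5, the fibronectin receptor chain, rose from 10.5 and 9.73 to 28.2 and 29.6 FPKM (1.43; limma adjusted p = 1.49e-04). ITGB6, partner of the integrin that activates latent TGF-beta, went from 15.0 and 16.1 to 31.0 and 32.4 (0.99). ITGA2, the collagen-binding chain, went from 33.4 and 36.2 to 49.6 and 57.4 (0.60). The common chain ITGB1 did not pass (0.13), and ITGB8 fell (-0.43). Over 19 measured integrin and laminin genes 9 rose and 4 fell, with a median of 0.13. These are 47.4% and 21.1%, against 11.5% and 10.3% over all loci. Leaving out single libraries moved the falls between 2 and 7, and with 8 libraries there were 2.

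Several of these promoters are shown because their genes rose together and hold the letters of an AP-1 site. Sequences are from RefSeq, build GRCh38.p14, 5′ to 3′ on the strand of the gene and upstream of the start, with the motif TGANTCA in capitals.
LAMA3 (chr18:23872883-23872969, + strand): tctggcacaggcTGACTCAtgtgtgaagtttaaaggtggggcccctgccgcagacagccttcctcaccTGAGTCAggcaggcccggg
LAMB3 (chr1:209651415-209651461, - strand): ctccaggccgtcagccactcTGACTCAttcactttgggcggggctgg
PLAUR (chr19:43670329-43670375, - strand): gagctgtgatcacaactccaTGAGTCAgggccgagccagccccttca
UPP1 (chr7:48088577-48088623, + strand): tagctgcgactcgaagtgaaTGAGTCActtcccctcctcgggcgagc
The matches begin 125 and 69 bases before the start of LAMA3, 67 before LAMB3, 186 before PLAUR and 107 before UPP1. UPP1, uridine phosphorylase, was chosen after its values were seen and went from 53.5 and 52.3 to 131 and 128 FPKM (1.28). On both strands of the 250 bases before and 50 after a start, TGANTCA occurred in 644 of 9364 tested genes with a promoter entry (6.88%). It occurred in 111 of 1087 called higher (10.2%), in 7 of 51 that rose by at least 1 (13.7%) and in 68 of 955 called lower (7.12%). A match is a description of the letters and not a measured binding site. The entries used here held none for MMP1, THBD, HMOX1, ITGB4, PI3, SOX9, NUPR1 or FOXJ1.

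Components of the EGFR pathway moved in both directions. On the ERBB list 18.8% rose and 25.0% fell, against 11.5% and 10.3% of all loci. The receptors did not pass: EGFR was at 41.8 and 47.6 FPKM untreated and 45.9 and 55.2 with EGF (0.17; limma adjusted p = 0.275), overlapping between groups. ERBB2 was at -0.26 (limma adjusted p = 0.0681) and ERBB3 at -0.18 (0.0795, limma adjusted p). ERBB2 passed with the replicate block (0.00345), with the filter of 5 FPKM (0.0451), with equal library medians (0.0489) and without SYK-KO EGF replicate 2 (0.0161), all limma adjusted p. EGFR passed with the block (0.0239) and without SYK-KO EGF replicate 1 (0.0400), and ERBB3 with the block (0.0417), again limma adjusted p. Among ligands, HBEGF, a membrane-anchored activator of EGFR, rose from 1.67 and 1.61 to 7.24 and 7.43 FPKM (1.66; limma adjusted p = 1.30e-04). Amphiregulin, AREG, is listed at 2 near-identical loci and is uncertain: both were called higher, at 0.68 and 0.67, and neither in the 8-library fit (limma adjusted p = 0.137 and 0.167). TGFA did not pass (-0.10). ERRFI1, which binds and inhibits active EGFR, rose from 28.2 and 27.4 to 57.8 and 57.5 FPKM (1.03; limma adjusted p = 1.92e-04). The 6 inhibitors measured gave 2 rises and 2 falls: the ubiquitin ligase CBL rose as well (0.34), a call that ended in 4 fits, its relative CBLB went from 7.55 and 7.41 to 4.15 and 4.44 (-0.68) and SOCS3, a cytokine-induced inhibitor, from 60.9 and 59.1 to 44.5 and 46.6 (-0.39). The ERBB list held 3 rises and 4 falls of 16 measured genes, and the falls ranged from 2 to 5 with a library left out.

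Of 18 genes listed as feedback inhibitors of ERK 10 rose and 1 fell, with a median of 0.27. These are 55.6% and 5.56%, against 11.5% and 10.3% of all loci tested. The nuclear phosphatase DUSP5 went from 89.9 and 83.6 to 200 and 195 FPKM (1.18 ± 0.0557; limma adjusted p = 1.75e-04). DUSP1 went from 33.0 and 34.1 to 59.6 and 69.5 (0.92), and DUSP7, which acts in the cytoplasm, from 5.01 and 5.01 to 9.11 and 9.68 (0.79). These phosphatases remove the activating phosphates of MAP kinases. DUSP6, the common readout of ERK activity, was called at 0.26, but the call ended in 4 fits. Further rises of this list, SPRED2, SPRED3 and RASA1, lost their calls in 4, 2 and 2 fits. PHLDA1, a gene induced by growth factors, went from 51.4 and 46.7 to 106 and 94.5 FPKM (1.02). The SPROUTY inhibitors split: SPRY2 rose from 63.5 and 62.7 to 92.6 and 90.1 (0.53), SPRY1 fell from 27.4 and 27.7 to 17.3 and 17.4 (-0.64) and SPRY4 did not pass (-0.01). With a library left out the rises ranged from 6 to 10.

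Among early and AP-1 transcription factors 11 of 28 rose (39.3%) and 0 fell, against 11.5% and 10.3% over all loci. Their median was 0.12. FOSL1, the FOS-family member tied to sustained ERK activity, went from 75.9 and 60.7 to 120 and 110 FPKM (0.75; limma adjusted p = 0.00516). FOSB went from 3.74 and 2.25 to 8.10 and 7.72 (1.18) and BATF3, a JUN partner, from 2.91 and 2.61 to 5.13 and 5.18 (0.71). FOS was at 70.2 and 40.1 untreated and 96.0 and 84.2 with EGF and missed the threshold (0.75; limma adjusted p = 0.0626). The immediate-early gene EGR1 (-0.30), JUNB (0.05) and MYC (-0.07; limma adjusted p = 0.329) did not pass at this time point either, and the call of JUN (0.28) ended in 5 fits. ETS1, a factor phosphorylated by ERK, went from 7.86 and 8.22 to 15.0 and 15.6 FPKM (0.85). KLF6, a zinc finger factor, went from 35.1 and 36.4 to 57.8 and 57.4 (0.67), and its relative KLF4 from 4.49 and 4.63 to 6.28 and 6.96 (0.45). The small MAF protein MAFF, which pairs with bZIP factors, went from 25.1 and 25.5 to 36.9 and 36.3 (0.52), and the early response gene IER5 from 104 and 99.6 to 152 and 150 (0.56). These 5 factors thus rose by less than 1 on the log2 scale.

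**Figure D3:**
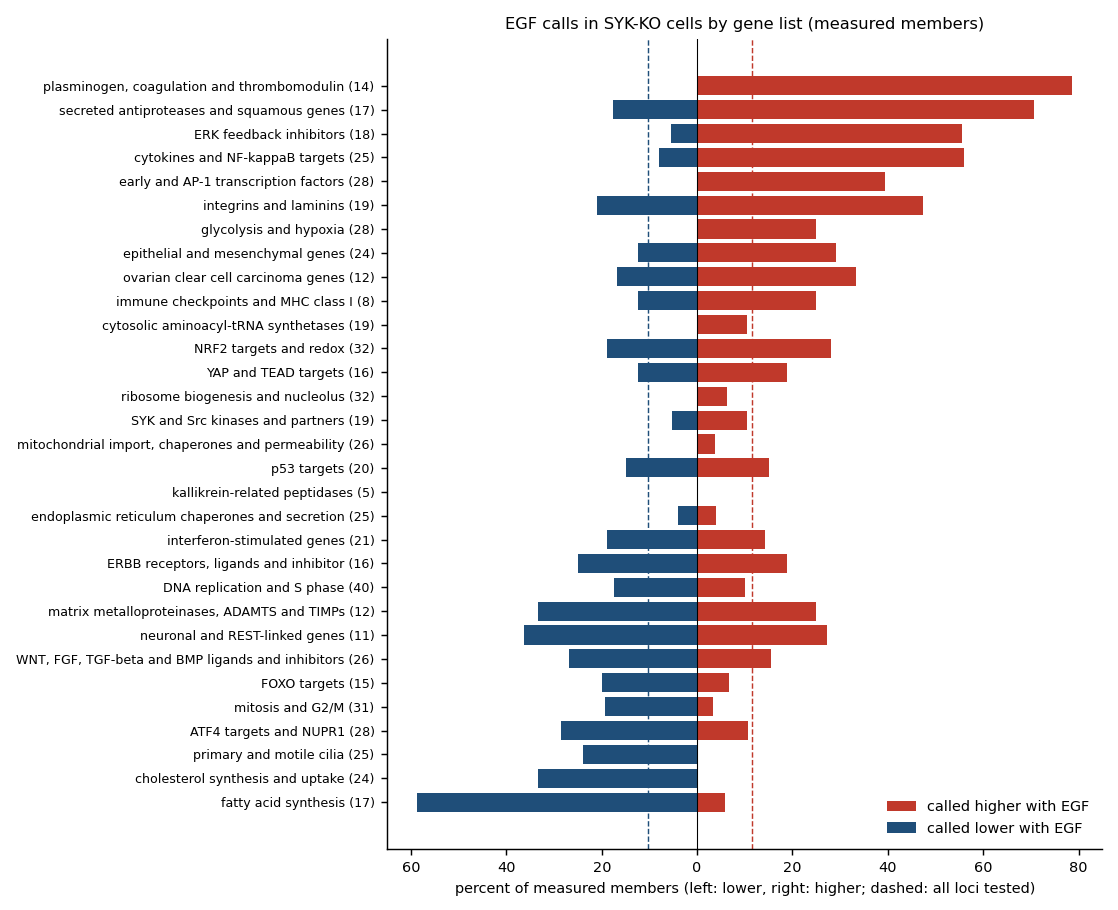
Percent of the measured members of each of 31 gene lists that were called higher (red, to the right) or lower (blue, to the left) with EGF in SYK-KO cells, with the number measured in parentheses. Dashed lines mark the same share over all loci tested, 11.5% and 10.3%; the plasminogen list extends furthest right and fatty acid synthesis furthest left.

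Of 25 cytokine and NF-kappaB genes 14 rose and 2 fell, 56.0% and 8.00% against 11.5% and 10.3% over all loci. Their median was 0.30, and with 8 libraries 10 rose and 1 fell. The neutrophil-attracting chemokine CXCL2 went from 7.57 and 7.76 to 19.4 and 17.6 FPKM (1.17; limma adjusted p = 3.56e-04). CXCL1 went from 23.1 and 23.9 to 42.4 and 47.3 (0.90), CXCL5 from 20.3 and 20.0 to 34.0 and 34.2 (0.73) and CXCL3 from 3.22 and 2.85 to 6.20 and 6.27 (0.84). CXCL1, CXCL2 and CXCL3 are close paralogs, so reads could be shared between them. CXCL8, the best-known member, went from 5.09 and 5.99 to 8.41 and 10.3 FPKM (0.66), and its call ended in 2 fits. IL6 was abundant, at 161 and 147 and then 180 and 182 (0.24), and its call ended in 6 fits.

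Of 9 genes that feed back on NF-kappaB 7 rose and 1 fell. The fall, TNFAIP2, was at -0.32 and its call ended in 2 fits. Among the rises, NFKB1, NFKB2, BCL3 and TNFAIP3 lost their calls in 4, 3, 1 and 1 fits. BIRC3, an inhibitor of apoptosis and ubiquitin ligase, went from 2.62 and 3.03 to 6.70 and 8.26 FPKM (1.14; limma adjusted p = 0.00123). The subunit RELB went from 9.78 and 10.9 to 15.2 and 16.6 (0.58), and the inhibitor NFKBIA from 66.4 and 64.1 to 89.5 and 93.3 (0.48). Prostaglandin synthase, PTGS2, went from 7.58 and 5.37 to 12.6 and 11.9 (0.84), a call that ended in 2 fits. The acute-phase genes SAA1 (-0.08) and LCN2 (0.15) did not pass. The share of promoters with the NF-kappaB letters (GGGNN followed by TTTCC) was 2.85% over all tested genes (267 of 9364), 3.68% in those called higher and 11.8% (6 of 51) in those that rose by at least 1. CXCL2 and BIRC3 are among those 6 and are shown for this reason, with the matched letters in capitals, read on either strand.
CXCL2 (chr4:74099244-74099293, - strand): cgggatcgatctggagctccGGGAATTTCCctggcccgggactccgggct
BIRC3 (chr11:102317265-102317314, + strand): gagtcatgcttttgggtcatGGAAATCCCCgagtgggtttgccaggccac
The match begins 78 bases before the start of CXCL2 and 199 before that of BIRC3. Letters of the other motifs searched were CCGGAAG for ETS factors (22.8% of all tested, 17.8% of rises), TGACGTCA for the cyclic AMP response element (3.91% and 3.31%), TGACNNNGC for the antioxidant response element core (19.6% and 21.3%) and TGATGNAA for the CEBP-ATF element (2.57% and 2.94%). Shares among genes called lower were 18.1% for ETS, 2.83% for the cyclic AMP response element, 19.9% for the antioxidant core and 3.14% for CEBP-ATF. For the NF-kappaB letters it was 2.30%. A TGACNNNGC match can overlap an AP-1 match.

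Secreted antiproteases and squamous genes gave 12 rises and 3 falls of 17, with a median of 0.49. These are 70.6% and 17.6%, against 11.5% and 10.3% over all loci. Elafin, PI3, an inhibitor of neutrophil elastase, was at 19.6 and 23.2 FPKM untreated and 64.8 and 74.5 with EGF (1.66; limma adjusted p = 3.56e-04). SLPI, the related leukocyte protease inhibitor, went from 593 and 526 to 967 and 972 (0.79), and the intracellular elastase inhibitor SERPINB1 from 17.8 and 17.4 to 54.8 and 50.8 (1.53). All 3 inhibitors were thus called higher, and their groups did not overlap, as at 63.3% of all loci tested. Several keratins of simple epithelia were among the largest gains in FPKM. KRT8 went from 3701 and 3333 to 5889 and 5371 FPKM (0.68; limma adjusted p = 0.00383). Its partner KRT18 went from 3328 and 2873 to 5188 and 4414 (0.63), with a call that ended in 2 fits, and KRT19 from 1889 and 1816 to 2486 and 2486 (0.42). KRT7, of the same kind, was at 546 and 571 FPKM untreated and 554 and 549 with EGF. KRT8 and KRT18 share an interval in the table and have many pseudogene copies, so their values are uncertain. KRT16, a keratin of activated epidermis, rose from 0.650 and 0.683 to 2.89 and 3.50 (1.33), and KRT15, a basal keratin, from 18.2 and 14.8 to 27.7 and 25.5 (0.66). KRT80 fell from 22.4 and 23.7 to 14.8 and 15.2 (-0.58). Of 3 cornified envelope genes 2 fell and 1 rose. CNFN was at -0.47 and filaggrin, FLG, at -0.79, the latter called in all fits but 1, and the cross-linking enzyme TGM2 was at 0.48, a call that ended in 2 fits. Of 5 measured kallikrein-related peptidases 0 rose and 0 fell (limma), with a median of 0.01.

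HMOX1, the heme oxygenase that degrades heme to biliverdin, iron and carbon monoxide, was at 44.2 and 41.4 FPKM untreated and 136 and 158 with EGF. This is 3.44-fold, or 1.76 ± 0.0789 in log2 (limma adjusted p = 1.54e-04), at chromosome 22, 35777060 to 35790207 (hg19). NRF2, which drives antioxidant genes, has HMOX1 among its targets, but the wider list was mixed. It held 9 rises and 6 falls of 32, 28.1% and 18.8% against 11.5% and 10.3% over all loci, with median 0.06. The autophagy adaptor SQSTM1 rose from 102 and 103 to 126 and 138 FPKM (0.36). Thioredoxin reductase, TXNRD1, rose from 110 and 111 to 147 and 158 FPKM (0.46). The quinone reductase NQO1, a standard NRF2 readout, missed the threshold (0.01; adjusted p of 0.921, limma), as did GCLC (-0.03). Glutathione reductase, GSR, fell from 38.2 and 40.8 to 27.2 and 29.5 (-0.47). The glutathione transferase GSTP1 fell from 1228 and 1223 to 764 and 827 (-0.62), the largest loss in FPKM among the named genes. TXNIP, the inhibitor of thioredoxin and of glucose uptake, fell from 192 and 203 to 106 and 102 (-0.91) at an interval with many other entries. With a library left out, the rises on this list ranged from 4 to 9.

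PPIF, cyclophilin D, is the mitochondrial matrix isomerase that sets the opening of the permeability transition pore. It was at 49.7 and 48.6 FPKM untreated and 170 and 173 with EGF, 3.49-fold (1.78 ± 0.0483; limma adjusted p = 3.15e-05), with the 2 libraries of each group close together. PPIF lies at chromosome 10, 81107220 to 81115089 (hg19). It was the single rise among 26 measured genes of mitochondrial import, chaperones and permeability, of which 0 fell and whose median was 0.00. That is 3.85% of the list, against 11.5% of all loci that rose. The carrier SLC25A5 was at 0.02, the channel VDAC1 at -0.13 and the chaperonin HSPD1 at 0.06, none past the threshold.

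**Figure D4:**
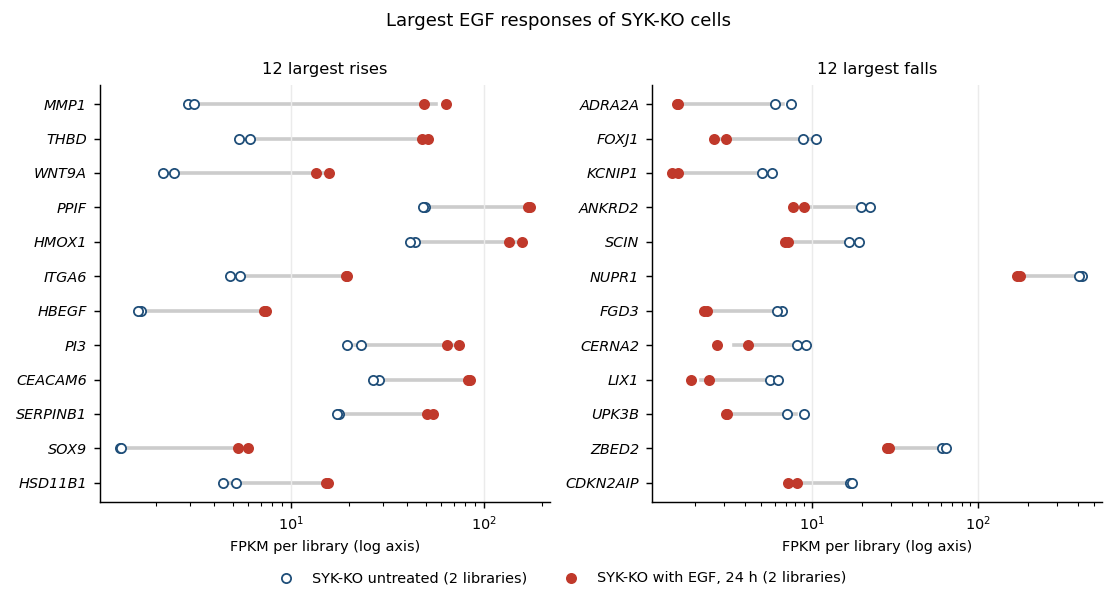
FPKM per library (log axis) of the 12 largest rises and 12 largest falls, each averaging 5 FPKM or more on its higher side; open circles are the 2 untreated and filled circles the 2 EGF libraries of SYK-KO cells, joined at their means. MMP1 spans 2.93 and 3.13 to 49.0 and 63.6 FPKM and NUPR1 421 and 402 to 172 and 178. The groups do not overlap at the genes shown, as at all 2646 called loci and at 63.3% of all loci tested.

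NUPR1, a small chromatin-binding stress protein, was among the most abundant genes that fell. It was at 421 and 402 FPKM untreated and 172 and 178 with EGF, 2.36-fold lower (-1.23 ± 0.0531; limma adjusted p = 1.48e-04), at chromosome 16, 28548662 to 28550495 (hg19). Among 28 genes of the ATF4 stress response, which NUPR1 belongs to, 3 rose and 8 fell. The shares, 10.7% and 28.6%, stand against 11.5% and 10.3% over all loci, while the list median was 0.04. The serine synthesis enzyme PSAT1 fell from 130 and 123 to 91.0 and 80.6 FPKM (-0.56), and the amino acid transporter SLC7A5 from 836 and 755 to 582 and 539 (-0.50). CEBPB, a bZIP factor that also answers to growth factors, rose from 21.1 and 20.7 to 31.4 and 27.9 (0.48). The regulators ATF4 (0.14; limma adjusted p = 0.119) and DDIT3 (0.13) and the asparagine synthetase ASNS (0.06) did not pass. GDF15, a stress-induced cytokine, was called at -0.35, and the call ended in 5 fits. With all 8 libraries the falls were 5. Genes that load the secretory pathway and make protein were mostly uncalled. Of 25 chaperone and secretion genes 1 rose and 1 fell, and the chaperone HSPA5 was at -0.04 and XBP1 at 0.06. HERPUD1, of the degradation machinery, was the fall, from 53.8 and 55.3 to 37.2 and 36.1 FPKM (-0.56). Against 11.5% of all loci, 2 of 19 aminoacyl-tRNA synthetases rose (10.5%), CARS1 and WARS1. Likewise 2 of 32 ribosome biogenesis genes rose (6.25%), NOP10 and DDX21. All 4 calls ended in at least 1 fit.

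Genes of lipid synthesis fell more often than they rose. Of 17 fatty acid synthesis genes 10 fell and 1 rose, with a median of -0.26. These are 58.8% and 5.88%, against 10.3% and 11.5% over all loci. SCD, the desaturase that makes oleate, went from 517 and 530 to 347 and 357 FPKM (-0.57; limma adjusted p = 0.00108). The acyl-CoA synthetase ACSL1 went from 25.6 and 27.5 to 17.7 and 19.9 (-0.48), and the driver of the program, SREBF1, from 19.5 and 19.3 to 15.1 and 14.3 (-0.38). The synthase FASN was called at -0.26, and the call ended in 5 fits. With a library left out the falls ranged from 4 to 10. Of 24 genes of cholesterol synthesis and uptake 8 fell (33.3%) and 0 rose, against 10.3% and 11.5% over all loci. Their median was -0.14, and 4 fell with 8 libraries. A late enzyme of the pathway, DHCR7, went from 177 and 167 to 125 and 116 FPKM (-0.51). FDFT1, squalene synthase, went from 335 and 330 to 270 and 258 (-0.33).

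Glycolysis and hypoxia genes gave 7 rises (25.0%) and 0 falls of 28, against 11.5% and 10.3% over all loci. Their median was 0.04. Hexokinase HK2, the first step of glycolysis, went from 28.3 and 28.5 to 40.5 and 44.5 FPKM (0.56) and the platelet phosphofructokinase PFKP from 82.5 and 78.4 to 145 and 146 (0.85; limma adjusted p = 3.89e-04). PFKFB3, which makes an activator of phosphofructokinase, went from 8.01 and 9.54 to 14.6 and 20.0 (0.89), with a call that ended in 1 fit. The abundant enzymes GAPDH (-0.05), ENO1 (-0.09) and LDHA (0.06) and the glucose carrier SLC2A1 (0.05) did not pass. NDRG1, a hypoxia-linked gene, rose from 358 and 372 to 630 and 750 (0.91), while VEGFA (0.07) and HIF1A (-0.06) did not pass. The list median changed sign with the library left out, from -0.06 to 0.14.

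Of 40 replication and S-phase genes 4 rose and 7 fell (17.5%, against 10.3% over all loci), with a median of -0.01, and of 31 mitotic genes 1 rose and 6 fell (19.4%), with a median of -0.09. Cyclin E1, CCNE1, which drives entry into S phase, rose from 49.9 and 50.7 to 78.0 and 74.3 FPKM (0.59; limma adjusted p = 9.55e-04). The inhibitor CDKN2B rose too, from 3.50 and 3.47 to 5.74 and 6.08 (0.62). KIF20A, a kinesin of cytokinesis, fell from 19.5 and 17.7 to 12.6 and 11.8 (-0.57). The proliferation marker MKI67 (-0.19; limma adjusted p = 0.0795), PCNA (-0.18) and the topoisomerase TOP2A (-0.12) did not pass. With 8 libraries 2 replication and 2 mitotic genes fell, and with a library left out the falls went down to 1 in each list. Of 20 p53 targets 3 rose and 3 fell, 15.0% each against 11.5% and 10.3% over all loci. All 6 calls ended in at least 1 fit. The inhibitor CDKN1A was at 0.20 and MDM2 at -0.15, neither called. Of 15 FOXO targets 1 rose (6.67%) and 3 fell (20.0%), and only the call of TXNIP held in all fits.

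FOXJ1, the master factor of motile cilia, fell from 8.86 and 10.6 to 2.60 and 3.08 FPKM (-1.48; limma adjusted p = 5.22e-04). RSPH1, a radial spoke protein of motile cilia, went from 5.32 and 5.24 to 3.33 and 3.72 (-0.47). Among cilium genes the share of falls was 24.0%, against 10.3% over all loci. Of 25 cilium genes 6 fell and 0 rose, with a median of -0.19; the falls numbered 10 with library medians made equal and 2 to 8 with a library left out. ADRA2A, an adrenergic receptor coupled to inhibition of cyclic AMP, fell from 6.07 and 7.49 to 1.57 and 1.56 FPKM (-1.59; limma adjusted p = 3.94e-04). KCNIP1, a calcium-binding partner of potassium channels, fell from 5.06 and 5.83 to 1.46 and 1.57 (-1.36), and the corepressor RCOR2 from 3.05 and 3.07 to 0.944 and 1.44 (-0.90). The neuropeptide precursor VGF rose from 1.49 and 1.03 to 4.81 and 3.05 (1.11), in all fits but 1. Neuronal and REST-linked genes together gave 3 rises and 4 falls of 11, with a median of 0.05. These are 27.3% and 36.4%, against 11.5% and 10.3% over all loci.

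Secreted signals of other pathways changed by single members. WNT9A, a ligand of the WNT family, was at 2.16 and 2.47 FPKM untreated and 13.5 and 15.7 with EGF, 6.31-fold (2.23; limma adjusted p = 1.30e-04). The secreted WNT antagonist SFRP1 went from 30.4 and 31.9 to 55.6 and 57.2 (0.84). FGF18 fell from 37.9 and 39.6 to 19.0 and 20.2 (-0.95), and the receptor FGFR2 from 3.60 and 4.98 to 1.29 and 1.29 (-1.20). Of 7 measured genes for fibroblast growth factors, their receptors and a binding protein 3 fell and 0 rose, with a median of -0.25. The other fall, FGFR1, lost its call in 6 fits. The list of WNT, FGF and TGF-beta genes gave 4 rises and 7 falls of 26, with a median of 0.04, and 3 and 3 with 8 libraries. The 4 and 7 are 15.4% and 26.9%, against 11.5% and 10.3% over all loci.

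Surface and lineage genes were mixed. Shares of rises and falls in the lists that follow stand beside 11.5% and 10.3% over all loci. VTCN1, an inhibitory ligand of T cells, fell from 105 and 119 to 53.4 and 59.7 FPKM (-0.97; limma adjusted p = 8.40e-04), while NT5E, which makes adenosine at the surface, rose from 57.1 and 57.7 to 121 and 124 (1.08). The list of checkpoints and MHC class I held 2 rises (25.0%) and 1 fall (12.5%) of 8. Of 21 interferon-stimulated genes 3 rose (14.3%) and 4 fell (19.0%), but 0 and 1 with 8 libraries. Epithelial and mesenchymal genes gave 7 rises (29.2%) and 3 falls (12.5%) of 24, with a median of 0.09. CD44, the hyaluronan receptor, rose from 65.2 and 64.0 to 105 and 112 FPKM (0.74), TAGLN, an actin-binding protein, from 5.10 and 5.14 to 12.3 and 11.6 (1.08) and cadherin CDH6 from 2.45 and 2.55 to 5.31 and 5.44 (0.86). TGFBI, a secreted matrix protein, rose from 15.0 and 13.2 to 23.9 and 24.6 (0.74). E-cadherin, CDH1, missed the threshold (-0.31; adjusted p of 0.0663, limma), as did EPCAM (0.17). Of 16 YAP and TEAD targets 3 rose (18.8%) and 2 fell (12.5%). AMOTL2, which holds YAP in the cytoplasm, fell from 80.5 and 83.7 to 46.2 and 47.5 (-0.80), as did the kinase NUAK2, from 19.0 and 18.4 to 10.7 and 9.33 (-0.84). The receptor kinase AXL rose from 0.562 and 0.672 to 1.31 and 1.49 (0.57), while the classic targets CCN1 (0.01) and CCN2 (-0.11) did not pass. Genes typical of ovarian clear cell carcinoma gave 4 rises (33.3%) and 2 falls (16.7%) of 12, and 0 and 1 with 8 libraries. ANXA4, an annexin high in this tumour type, fell from 286 and 301 to 183 and 212 (-0.57). Kinases and partners around SYK gave 2 rises (10.5%) and 1 fall (5.26%) of 19, no more than the 11.5% and 10.3% over all loci. VAV3, an exchange factor that SYK phosphorylates in immune cells, fell from 10.9 and 12.5 to 5.98 and 6.88 (-0.77), and the adaptor GAB2 went from 3.35 and 3.36 to 4.77 and 5.01 (0.44).

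Some genes crossed from below 1 FPKM to at least 2, or the reverse. The 6 that did so upward were TMEM158, ARL14EPL, CALB2, KRT16, SLC26A9 and ARHGAP22. TMEM158, a membrane protein induced by RAS, went from 0.432 and 0.505 to 3.79 and 3.23 FPKM (1.62). CALB2, the calcium-binding calretinin, went from 0.586 and 0.287 to 3.62 and 2.96 (1.58). CALB2 is also a mesothelial marker, and another, UPK3B, fell from 7.15 and 8.97 to 3.12 and 3.07 (-1.14). The 3 that fell below 1 FPKM were OLR1, DLX3 and TMEM52B. OLR1, a scavenger receptor for oxidized LDL, went from 3.33 and 4.12 to 0.654 and 0.738 FPKM (-1.47), and DLX3, a homeobox factor of epidermis, from 2.01 and 3.14 to 0.614 and 0.676 (-1.10). OLR1 and TMEM52B are listed in the same interval.

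The remaining large responses were spread over functions. SOX9, a factor of progenitor cells in many epithelia, rose from 1.30 and 1.32 to 6.02 and 5.30 FPKM (1.52). HSD11B1, which regenerates cortisol, rose from 5.17 and 4.43 to 15.6 and 15.2 (1.50), and CEACAM6, an adhesion molecule of carcinomas, from 28.7 and 26.7 to 84.9 and 83.0 (1.57). HSD11B1 shares its interval with G0S2. Of the falls, SCIN severs actin filaments and went from 16.8 and 19.4 to 6.95 and 7.19 (-1.24). ZBED2, a zinc finger repressor, went from 61.2 and 64.6 to 28.3 and 29.4 (-1.10), and the ankyrin repeat gene ANKRD2 from 19.7 and 22.4 to 9.03 and 7.69 (-1.24). The falls of FGD3 (-1.16), an exchange factor for CDC42, of the non-coding CERNA2 (-1.15), of LIX1 (-1.14) and of CDKN2AIP (-1.08), which binds the p53 pathway, were close to each other in size. Among abundant genes, TM4SF1, a tetraspanin-like surface protein, gained from 1022 and 918 to 2106 and 1927 FPKM (1.06), and CSTB, an inhibitor of cathepsins, from 1072 and 962 to 1423 and 1469 (0.51). The secreted insulin-like growth factor binding protein IGFBP7 lost from 606 and 662 to 445 and 452 (-0.50). CD24, a mucin-like surface protein with near-identical copies in the genome, went from 490 and 536 to 249 and 256 (-1.02). The calls of SPP1 (0.32) and TMSB10 (0.32), both among the 8 largest gains in FPKM, ended in 5 and 7 fits, and that of ECH1 (-0.37) in 1.

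Whether a response differed from that of SYK-WT cells was tested as the difference of the EGF responses in 1 fit of all 8 libraries. This difference passed at 1 locus of 12112 (0.00826%), PLAT, while 1070 loci had an unadjusted p under 0.05. The count rose to 867 without SYK-WT replicate 1 and to 52 without SYK-WT replicate 2, and was 0 without SYK-WT EGF replicate 1. The 2 untreated SYK-WT libraries differed by a median of 0.150 on the log2 scale, against 0.0669 to 0.0828 between the libraries of the other groups. PLAT was at 2.16 and 1.99 FPKM in untreated SYK-WT cells and 17.6 and 17.2 with EGF, against 3.88 and 3.42 and 5.69 and 4.84 in SYK-KO cells. The response was lower in SYK-KO cells by a log2 difference of -2.15 ± 0.130 (SE; limma adjusted p = 0.00259). The difference of PLAT did not reach the threshold without SYK-WT EGF replicate 1 (0.0525, limma adjusted p). MMP1 went from 0.272 and 0.344 to 5.75 and 4.54 FPKM in SYK-WT cells, below SYK-KO cells under the same treatment. The difference of its responses, 1.59 ± 0.194, missed the threshold (limma adjusted p = 0.0694). On the FPKM scale MMP1 rose 16.7-fold in SYK-WT and 18.6-fold in SYK-KO cells, so most of this difference comes from adding 1 to SYK-WT levels far below 1 FPKM. With a pseudocount of 0.1 it was 0.48 ± 0.233 for MMP1 (limma adjusted p = 0.628). SLC26A9, an anion transporter, was at 0.171 and 0.152 FPKM in untreated SYK-WT cells and 0.314 and 0.262 with EGF, against 0.477 and 0.639 and 2.92 and 2.64 in SYK-KO cells, a difference of 1.13 that missed as well (0.0694, limma adjusted p). For the ubiquitin ligase MARCHF4 the fold change was 1.87 in SYK-WT and 0.66 in SYK-KO cells, and for SUGCT, a glutarate CoA-transferase, 1.47 and 0.65, with the same adjusted p. The forkhead factor FOXD1 had 1.85 and 0.92 (limma adjusted p of the difference = 0.106). The elongase ELOVL3 had -0.10 in SYK-WT and 0.79 in SYK-KO cells, the synuclein SNCG 1.63 and 0.79 and the acetyltransferase NAA40 -0.91 and -0.32, with adjusted p of the difference from 0.135 to 0.152 (limma). CXCL5 was at 0 and 0 FPKM in untreated SYK-WT cells and 0 and 0.0161 with EGF, so no fold is given there. None of these adjusted p values shows that the genotypes respond alike. By sign alone, 73 of the 75 rises of at least 1 in SYK-KO cells had a fold change above 0 in SYK-WT cells. Of the 23 such falls 23 were below 0. The matching share over all loci tested is not given here, so these counts do not show how alike the responses were.

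**Figure D5:**
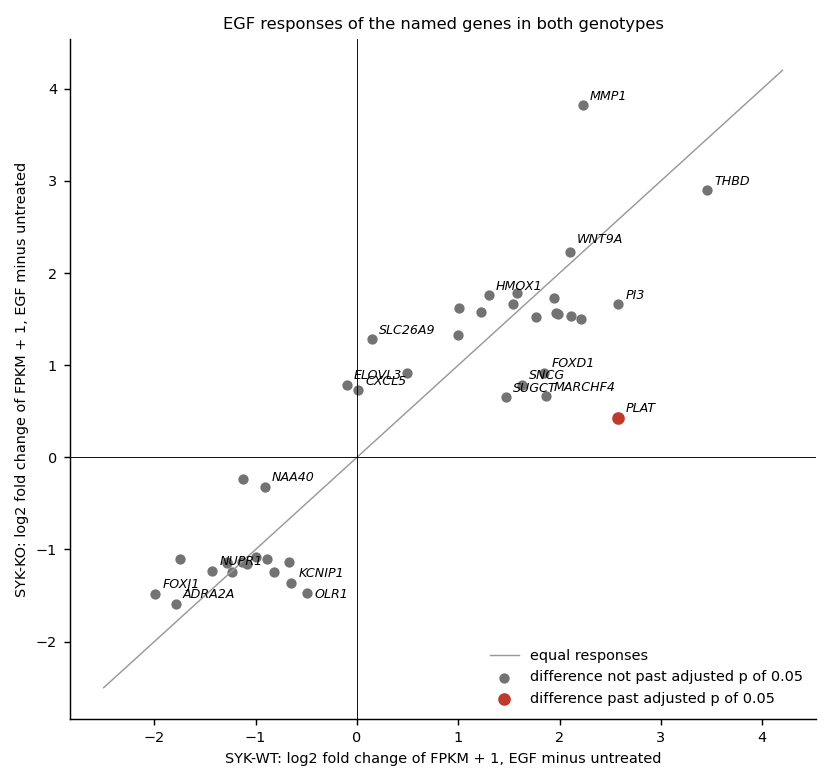
Log2 fold change of FPKM + 1 with EGF in SYK-WT cells (horizontal axis) and in SYK-KO cells (vertical axis) for the genes named by size of change, by crossing 1 FPKM or by the smallest adjusted p of the difference; the line marks equal responses. PLAT, in red, lies at 2.58 and 0.43 and is the only point past the threshold for the difference; MMP1 lies above the line at 2.23 and 3.82, mostly through the added 1 at its low SYK-WT level (16.7-fold and 18.6-fold in FPKM), and CXCL5 was at or near 0 FPKM in SYK-WT cells.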

How the data were processed

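Members, gene lists and tests were chosen with earlier results of these data known. The authors deposited FPKM per locus and library; TopHat, Cufflinks and Cuffdiff (2.2.1.3) with build hg19 are named per the submitters' processing notes, with no step or setting recorded. FPKM are not counts, so no count test was run. Loci with at least 1 FPKM in 2 of 8 libraries were kept. The 4 SYK-KO libraries were compared on log2(FPKM + 1) with limma 3.58.1 (R 4.3.3; moderated with a trend, two-sided, Benjamini-Hochberg over 12112 loci, threshold 0.05); SE are limma's. The difference between genotypes was the interaction in a fit of 8 libraries. Symbols came from RefSeq accessions. Lists are described by counts and medians. Genes named were the 12 largest rises and falls with at least 5 FPKM in the higher group, the 8 largest gains and losses in FPKM, those crossing 1 FPKM, 4 called members per list with the smallest adjusted p, up to 5 per direction for the difference, the receptors, SYK, MMP1, HMOX1, PPIF, ITGA6 and NUPR1. Other named genes were chosen after their values were seen, and some genes the rule names are not reported here. Scripts were tested on simulated data. The 11 alternatives are all 8 libraries, replicate block, pseudocount, filters, equal medians, no trend and each library left out.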

Additional observations from a re-analysis of the deposited data

Results flagged for a closer look

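PLAT, tissue plasminogen activator, was picked out because its EGF responses in SYK-KO and SYK-WT cells differed by a test of the difference itself, at -2.15 on the log2 scale (SE 0.130; limma adjusted p = 0.00259; n = 2 per group). The difference was between -2.05 and -2.49 in the other settings, and its adjusted p ranged from 7.18e-04 to 0.0525. Both EGF libraries of SYK-WT cells lay above both of SYK-KO cells, and both untreated libraries of SYK-WT cells lay below.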

How the results depend on the processing

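Of 2646 calls for EGF in SYK-KO cells, 1429 stood when 8 libraries shared one spread (808 higher, 621 lower) and 1389 with no filter on low values (797 and 592). Leaving out single libraries gave 1095 to 2752 calls, 611 to 1401 higher and 484 to 1351 lower; the lowest counts came without SYK-KO replicate 2 and the next without SYK-KO replicate 1. A pseudocount of 0.1, a filter of 5 FPKM, equal library medians and no variance trend gave 2580, 2419, 2705 and 2438, and equal medians made the split 1359 higher and 1346 lower. The labels share replicate numbers, but do not say that a number marks a shared culture or day. Deviations of same-numbered libraries correlated at 0.197 across genes over 2 pairs. The main fit was set without pairs, and whether the numbers mark pairs was not tested. With the replicate block 4019 loci were called, of which 2093 were higher and 1926 lower. Of 146 named genes that were called, 26 lost the call with 8 libraries, 23 and 19 without SYK-KO replicate 2 and replicate 1, 16 with no filter, 9 and 6 without SYK-KO EGF replicate 1 and replicate 2, 5 without the trend, 1 with the smaller pseudocount, 1 with equal medians and 0 with the block. No named change reversed in these 11 fits. The difference between genotypes passed at 1 locus and with no filter at 2. Leaving out a library gave 0 to 867 loci, 867 when SYK-WT replicate 1 was left out, 52 when its partner was and 0 when SYK-WT EGF replicate 1 was. The cause was not tested. Absolute depth is unknown for these FPKM values, so no counting interval was given.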

Other observations

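Gene families outside the lists, chosen after their values were seen and therefore given without a test of the family, add to the picture of EGF in SYK-KO cells. All 3 measured metallothioneins, small proteins that bind zinc and copper, were called higher: MT2A went from 312 and 289 to 575 and 583 FPKM (0.94, in all fits but 1), MT1X from 16.3 and 17.3 to 44.9 and 49.8 (1.44) and MT1F from 12.9 and 12.7 to 22.3 and 19.0 (0.65, in all fits but 1). These genes are near-identical copies and reads can be shared. Of 5 CEACAM adhesion genes 4 rose and 1 fell. CEACAM1 went from 5.84 and 5.39 to 14.6 and 15.7 FPKM (1.29) and CEACAM19, the fall, from 2.63 and 2.54 to 1.40 and 1.53 (-0.54). Of 14 S100 calcium-binding genes 8 rose and 0 fell by limma, where 11.5% of all loci rose, and 5 of the 8 rises ended in at least 1 of the other fits. S100A9, a subunit of calprotectin, went from 15.2 and 12.7 to 36.3 and 39.3 (1.38), while its partner S100A8 was at 1.07 and 1.28 and 1.07 and 1.75 and did not pass (0.13). S100A16 went from 244 and 230 to 360 and 375 (0.63).

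Genes of the actin skeleton changed by member as well, with 17 rises and 3 falls of 32 and a median of 0.22. Over all loci tested 11.5% rose and 10.3% fell. Of the 17 rises 7 ended in at least 1 of the other fits, and those named here held in all of them. The twinfilins, which cap actin filaments, were higher: TWF1 went from 144 and 125 to 376 and 317 FPKM (1.36) and TWF2 from 101 and 91.7 to 173 and 168 (0.82). LCP1, a bundling protein best known from leukocytes, went from 4.76 and 4.29 to 10.1 and 11.0 (1.06). Tropomyosin TPM1 fell from 177 and 190 to 104 and 106 (-0.80) and myosin light chain kinase, MYLK, from 16.1 and 15.7 to 10.0 and 10.5 (-0.59). ACTB was at 0.22 and the filamin FLNA at 0.10, neither past the threshold (limma). AKAP12, a kinase scaffold, went from 120 and 131 to 259 and 325 FPKM (1.20), glycogen phosphorylase PYGB from 40.1 and 38.9 to 82.4 and 84.0 (1.06) and the chromatin protein HMGA2 from 62.2 and 63.2 to 115 and 113 (0.85). The interleukin-1 receptor antagonist IL1RN went from 5.45 and 5.48 to 12.1 and 13.1 (1.07) and the potassium channel KCNN4 from 1.01 and 0.792 to 3.80 and 3.55 (1.30). CYP1A1, the monooxygenase induced through the aryl hydrocarbon receptor, went from 5.09 and 4.81 to 1.11 and 0.726 FPKM (-1.64; limma adjusted p = 4.35e-04). Its untreated mean lay just under the 5 FPKM required of the 12 largest falls.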
